A study of Rattus norvegicus with 145 samples.

Results

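The regional difference described here is that between the striatum and the cerebral cortex of wild-type (WT) rats at 19 months of age. Its members were chosen by their labels alone: 10 WT striatum libraries and 10 WT cortex libraries of 19 months, from the same 10 animals, 5 females and 5 males. They are 20 of the 145 libraries of the series, and come from 10 of its 63 animals. The series profiled messenger RNA by bulk sequencing in WT rats and in rats heterozygous for a Q130 knock-in (KI), a model of Huntington's disease, in which the striatum is the most affected part of the brain. Striatum, cortex and cerebellum were taken at several ages. WT rats carried no knock-in allele and no treatment is given in the labels; the strain is not given in the sources used here. The comparison gives the regional baseline against which a change in either region is read. Used beside it were WT striatum and cortex of 10 months (20 libraries, 10 animals) and of 24 months (8 libraries, 4 animals), KI striatum and cortex of 19 months (20 libraries, 10 animals), and the 10 WT cerebellum libraries of 19 months.

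The striatum is built mainly of GABAergic medium spiny projection neurons, which receive glutamatergic input from the cortex and dopaminergic input from the midbrain, with small populations of cholinergic and GABAergic interneurons. The cortex is a layered tissue whose principal neurons are glutamatergic pyramidal cells, mixed with several classes of GABAergic interneurons. Both contain astrocytes, oligodendrocytes, microglia and vascular cells, in proportions that differ, and large fibre bundles run through the striatum. Genes whose RNA differs between these tissues therefore include markers of projection neuron type, transmitter systems and glia. In bulk tissue fewer cells of a type and less RNA per cell cannot be told apart. The deposited tables give Ensembl rat gene identifiers without symbols, and 0 of 32883 identifiers could be matched to the gene table used here. Cell type markers and pathway lists were therefore not tested, no sequence is shown, and the tissue labels were not checked against marker genes. The results below are given for gene groups defined by the data of other animals and for 4 identifiers.

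Cortex libraries were deeper than striatum libraries in all 10 animals. Total estimated counts ran, in units of 1000000, from 27.1 to 34.5 in striatum and from 30.3 to 47.3 in cortex. Region was the main axis of variation: the first principal component of log2 CPM (counts per 1000000) held 67.3% of the variance and placed the 10 striatum libraries on one side and the 10 cortex libraries on the other. 2 libraries, written here as striatum M4 and cortex F4 after their sex and replicate number, stood apart within their region. The mean Spearman correlation of striatum M4 with the other striatum libraries was 0.965, against 0.987 to 0.99 for the other 9. That of cortex F4 was 0.986, against 0.991 to 0.993. Both lay low on the second component, which held 9.74% of the variance. Both also had relatively less RNA from long genes. The Spearman correlation between each gene's deviation from the region mean and its effective length was -0.339 for striatum M4 and -0.371 for cortex F4. In the other libraries it ran from -0.247 (striatum F2, the same animal as cortex F4) to 0.318 (cortex F1). Cortex F2 (-0.202) and cortex M5 (-0.194), of other animals, were also negative, so trends with length were not particular to these animals. The median SD of log2 CPM over animals was 0.163 in cortex and 0.208 in striatum, and 0.166 in striatum without animal M4. Striatum M4 and cortex F4 came from different animals. Gene calls, counts at 2-fold and 32-fold, and the log2 differences of the named identifiers were refitted without these animals. So were the tests by sex and age and the trends with level and length. Counts of shared sign, overlap, intervals and detection, the gene groups and the comparison with other cohorts were not. Whether leaving out either animal moved those results is not known.

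**Figure D1:**
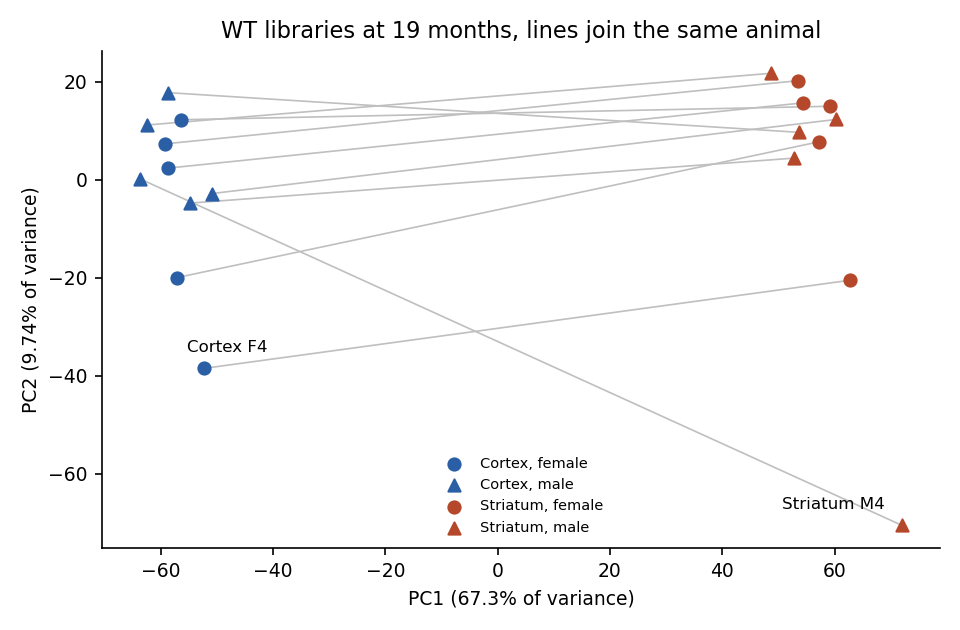
Principal components of log2 CPM in the 20 WT libraries of 19 months, the first on the x axis (67.3% of the variance) and the second on the y axis (9.74%). Points are libraries, circles are females, triangles are males, and grey lines join the striatum and cortex of the same animal; the regions separate along x, and striatum M4 and cortex F4 lie lowest along y.

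Striatum and cortex differed in most of the genes that could be tested, but by less than 2-fold in most of those. Of 15339 genes, 5493 (35.8%) were higher in striatum and 5620 (36.6%) were lower at a Benjamini-Hochberg adjusted p under 0.05 (edgeR quasi-likelihood test with the animal as a block). The median log2 difference was 0.54 among the genes called higher and -0.49 among those called lower. A stricter test asked whether the difference was larger than 2-fold (log2 of 1), and this 2-fold rule was met by 848 genes higher in striatum (5.53%) and 914 lower (5.96%). Their median log2 differences were 1.91 and -1.95. The near-equal split in direction is not a result of its own, because TMM scaling centres the log2 differences; their median over all genes tested was -0.01. When libraries were scaled by their total counts alone the median was 0.05, with 6087 genes called higher and 4969 lower.

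Over all 15339 genes tested, 7699 (50.2%) had the same sign in all 10 animals, 3644 higher and 4055 lower in striatum. Of the 11113 genes called in either direction, 7690 (69.2%) had the same sign in all 10 animals, and so had 1749 of the 1762 genes that met the 2-fold rule; these genes were called on the same animals, so their shares describe them and support nothing. The ranges of the 10 striatum and the 10 cortex libraries did not overlap for 1631 of these 1762 genes (92.6%). Over all genes tested, 2289 had every striatum library above every cortex library and 2568 had the reverse, 31.7% together. Animals M4 and F2 supplied striatum M4 and cortex F4. Without both, 5798 genes were called higher and 5730 lower, and 844 and 909 met the 2-fold rule.

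For 4226 genes no difference was called, and this alone does not show that their levels were equal. The interval of the difference is more direct: for 6804 genes the 95% interval lay within 0.5 log2 units on either side of 0. Of these, 3571 were also called, so their difference was resolved and small. Presence or absence in one region was rare. At least 1 TPM (transcripts per 1000000, a level corrected for gene length) was found in all 10 striatum libraries for 13075 genes and in all 10 cortex libraries for 13103, and 12524 genes were common to both. There were 121 genes with at least 1 TPM in every striatum library and under 1 TPM in every cortex library, and 120 with the reverse. With a limit of 0.1 TPM in the lower region, 0 genes were left for striatum and 1 for cortex.

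The largest differences in WT of 19 months lay on the cortex side. Among called genes, 381 were at least 4-fold higher and 433 at least 4-fold lower in striatum. At 8-fold the counts were 133 and 208, at 16-fold 39 and 102, and at 32-fold 6 and 47. At 64-fold they were 0 and 22. At 4-fold the order was the reverse in WT of 10 months, with 417 higher and 379 lower. The excess on the cortex side stood in the 3 other cohorts at 32-fold, with 18 higher and 36 lower in WT of 10 months, 3 and 38 in KI of 19 months, and 18 and 42 in WT of 24 months. It held in WT of 19 months under each alternative listed with the methods, although the small count on the striatum side moved between 0 and 17. Without animal M1 it was 15, against 46 on the cortex side. Without animals M4 and F2 the counts were 4 and 43. On the scale of log2(TPM + 1), which compresses low levels, they were 0 and 4.

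The 47 genes at least 32-fold lower in striatum differed widely in level. Their mean level in cortex ran from 0.489 to 786 TPM with a median of 7.76. For 3 of the 47 the 10 striatum libraries held 3 counts or fewer in all. The count of 47 became 32 with a filter of 1 CPM in 10 libraries and 22 on log2(TPM + 0.1). How far the limit of detection set these differences was not tested. The 6 genes at least 32-fold higher in striatum had a mean level there of 2.87 to 19.8 TPM with a median of 7.03, and all 6 had more than 3 counts over the cortex libraries. The size of the difference was again at least 32-fold for 30 of the 47 in WT of 10 months, for 37 in KI of 19 months and for 32 in WT of 24 months. For the 6 it was 6, 1 and 6. A gene not tested in a cohort was counted there as not reaching 32-fold. In cerebellum, 4 of the 6 lay below both forebrain regions and 0 above both. Of the 47, 16 lay below both and 4 above both. Over all genes tested, 24.2% lay below both and 56.3% above both. The 6 and the 47 were chosen for a forebrain gap, and the difference from all genes was not tested.

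**Figure D2:**
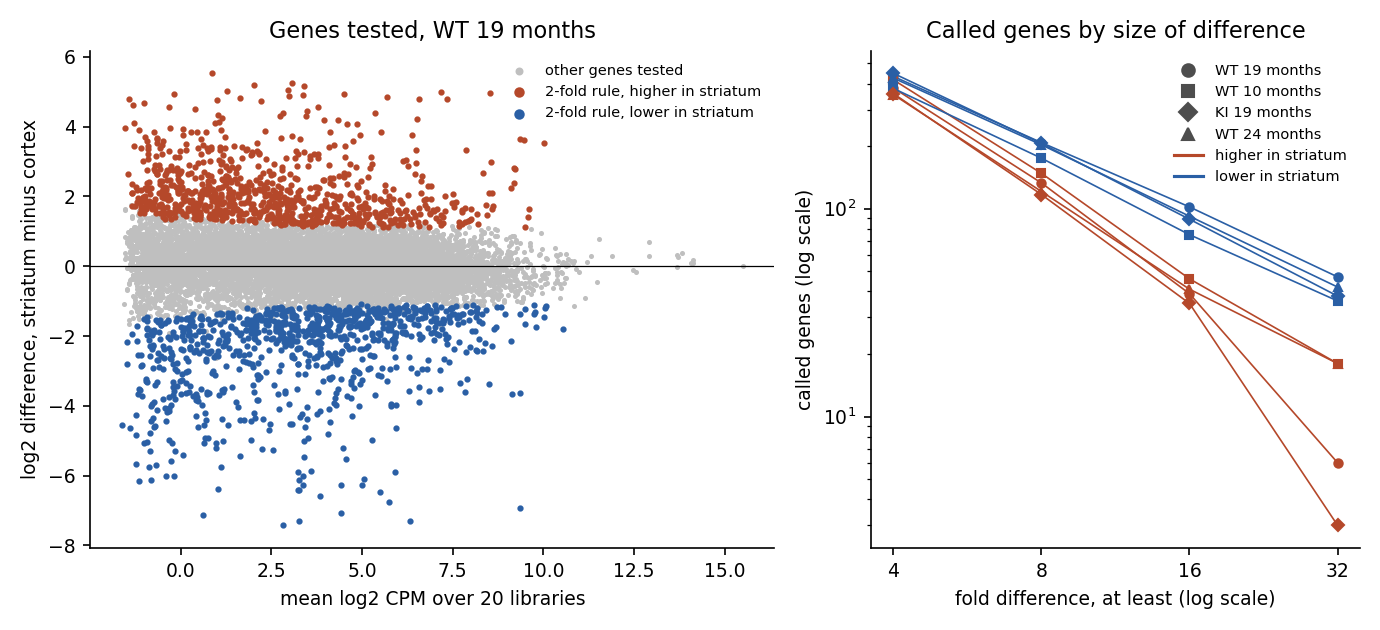
Left, log2 difference (striatum minus cortex, y axis) against mean log2 CPM (x axis) for the 15339 genes tested in WT of 19 months, with the 848 and 914 genes of the 2-fold rule coloured. Right, the number of called genes (y axis, log scale) at least 4, 8, 16 or 32-fold higher or lower in striatum (x axis) in 4 cohorts; at 32-fold the line for genes lower in striatum lies above that for genes higher in striatum in each cohort.

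Genes higher in striatum tended to have a lower mean CPM, a level not corrected for gene length, than genes lower in striatum. The trend was weak, with a Spearman correlation across 15339 genes of -0.149 between the log2 difference and mean log2 CPM. In the fifth of genes with the lowest mean level, the median log2 difference was 0.19, with 12% of genes meeting the 2-fold rule as higher and 8.71% as lower. In the fifth with the highest level the median was -0.11, and the shares were 3.06% and 4.89%. The same order of medians was found in WT of 10 months (0.33 and -0.16), in KI of 19 months (0.21 and -0.12) and in WT of 24 months (0.29 and -0.14). Without animals M4 and F2 the medians were 0.20 and -0.08. The relation to gene length was weaker: the Spearman correlation across 15339 genes between the log2 difference and effective length was 0.0852, a description across genes that share the same libraries. It was 0.0956 in WT of 10 months, 0.0124 in KI of 19 months and 0.107 without animals M4 and F2.

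To describe regional genes in libraries that did not choose them, gene groups were taken from WT animals of 10 months and read in the animals of 19 months. The 2-fold rule at 10 months gave 905 striatum-high genes, of which 889 were tested at 19 months. All 889 were higher in striatum at 19 months and all were called, and 732 met the 2-fold rule again. Their median log2 difference was 1.9 at 10 months and 1.81 at 19 months. The 858 cortex-high genes of 10 months gave 848 tested at 19 months, of which 846 were called lower in striatum and 745 met the 2-fold rule. Their medians were -1.88 and -1.89, and in neither group was a gene called in the opposite direction. These counts stand against a background of 35.8% and 36.6% of all genes called, and 5.53% and 5.96% meeting the 2-fold rule, at 19 months.

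Each of the 10 animals held the pattern. Within animals, the median log2 difference of the striatum-high genes ran from 1.61 to 2.04, and that of the cortex-high genes from -1.78 to -2.34. The far end of both ranges was animal M4, whose striatum library stood apart, and the other 9 animals lay between -1.78 and -1.88 for the cortex-high genes. Animal M4 also had the most striatum-high genes of the wrong sign, 12 of 889, against 0 to 3 in the others.

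Summed levels were taken over all 905 striatum-high and all 858 cortex-high genes of 10 months, whether or not tested at 19 months. The striatum-high genes took 2.69% to 3.44% of the TPM of a striatum library (3.14% ± 0.272, SD, n = 10) and 0.705% to 0.962% of a cortex library (0.793% ± 0.0717). The cortex-high genes took 4.64% to 6.01% of a cortex library (5.31% ± 0.383) and 1.35% to 1.98% of a striatum library (1.73% ± 0.194). No striatum library overlapped a cortex library in either share. These groups were thus a small part of the RNA in each tissue, and the cortex-high genes were a larger part of cortex than the striatum-high genes were of striatum. The striatum libraries M4 and M5 were lowest in cortex-high share, at 1.35% and 1.46%. Cortex M1 had the highest striatum-high share of the cortex libraries, at 0.962%, against at most 0.821% in the other 9. A few genes made up a large part of each library, with the 10 most abundant genes taking on average 30.9% of TPM in striatum and 27.7% in cortex.

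The cerebellum, a hindbrain tissue dominated by glutamatergic granule cells, gave another level for each gene. For the 889 striatum-high genes the median striatum level was 5.45 TPM, against 1.29 TPM in cortex and 1.63 TPM in cerebellum. The 848 cortex-high genes had medians of 16.2 TPM in cortex, 3.6 in striatum and 8.8 in cerebellum. All 905 striatum-high genes of 10 months took 1.23% ± 0.0284 of a cerebellum library (SD, n = 10), nearer to cortex. All 858 cortex-high genes took 4.84% ± 0.186, nearer to cortex as well. TPM was compared between tissues without further scaling. The 10 most abundant genes took 19.4% of TPM in cerebellum, a smaller share than in either forebrain region. Over all genes tested the median level was 18.1 TPM in cerebellum, 14.1 in striatum and 13.8 in cortex. Cerebellum lay below both forebrain regions for 38.5% of the 889 striatum-high genes and 30% of the 848 cortex-high genes, against 24.2% of all genes tested. It lay above both for 16.8% and 27.5%, against 56.3% of all genes. It lay between them for 44.8% and 42.6%, against 19.5% of all genes; the groups were chosen for a gap between the forebrain regions, and the difference from all genes was not tested.

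**Figure D3:**
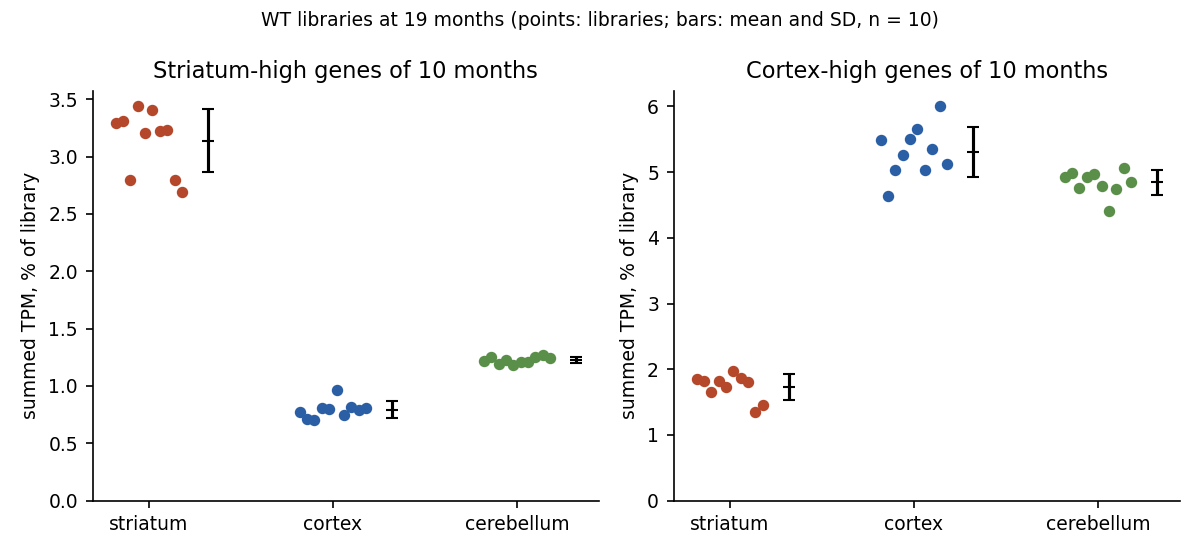
Summed TPM of all 905 striatum-high genes (left) and all 858 cortex-high genes (right) chosen at 10 months, as a percent of each WT library of 19 months (y axis, from 0), by region (x axis). Points are libraries and bars are the mean and SD (n = 10). Striatum lies apart in both panels, and cerebellum lies nearer to cortex. On the left every cerebellum library (1.18% to 1.27%) lies above every cortex library (0.705% to 0.962%). On the right the cerebellum and cortex ranges overlap.

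4 identifiers are shown in full, the first 2 in each direction by size among genes that met the 2-fold rule, shared their sign in all 10 animals and reached a mean log2 CPM of 1 (573 higher and 705 lower in striatum). Their names and functions are not given in the files. ENSRNOG00000027658 was at 6.55 CPM in the lowest, 13.6 in the median and 27.6 in the highest striatum library, and at 0.116, 0.343 and 0.987 CPM in cortex. The regions did not overlap, but within each region the level varied several-fold between animals, and the lowest striatum value was that of M4. The log2 difference was 5.23 ± 0.32 (SE, 10 animals; edgeR adjusted p = 2.7e-08). In cerebellum it was at 1.22 ± 0.348 TPM (SD, n = 10), between cortex (0.349 ± 0.274 TPM) and striatum (13.4 ± 6.19 TPM).

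ENSRNOG00000012556 was steadier in striatum, at 6.08, 7.98 and 9.65 CPM in the lowest, median and highest library. In cortex it was at 0, 0.204 and 0.603 CPM, from 0 to 22 counts a library, and the highest was cortex M1. The log2 difference was 5.18 ± 0.264 (SE, 10 animals; edgeR adjusted p = 1.27e-09). Its level in cerebellum was 0.0219 ± 0.0526 TPM (SD, n = 10), with a median of 0, against 0.156 ± 0.121 TPM in cortex and 5.74 ± 1.19 TPM in striatum. Of the 4 identifiers it was the one with the lowest cerebellar level.

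ENSRNOG00000030111 had the largest fitted difference of all genes tested, although ENSRNOG00000006204 exceeded it in females alone, without animal M5 and on log2(TPM + 0.1) and log2(TPM + 1). In cortex it was at 10.9, 13.6 and 17.7 CPM in the lowest, median and highest library, and in striatum at 0, 0.0663 and 0.277 CPM, from 0 to 8 counts a library. The striatum level was 0% to 2.25% of the same animal's cortex level, highest in F3. The fitted log2 difference was -7.42 ± 0.215 (SE, 10 animals, edgeR adjusted p = 2.69e-12). With so few striatum counts its size depends on the prior count of the fit, and its SE is approximate. Cerebellum was at 0.503 ± 0.128 TPM (SD, n = 10), above striatum (0.0728 ± 0.0766 TPM) and below cortex (13.1 ± 2.73 TPM).

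ENSRNOG00000006204 combined a high level in cortex with a low one in striatum. It was at 140, 156 and 183 CPM in the lowest, median and highest cortex library, and at 0.419, 0.736 and 3.12 CPM in striatum. The striatum libraries held 13 to 83 counts each, so the gene was detected in all of them, and M5 was highest. The log2 difference was -7.30 ± 0.265 (SE, 10 animals; edgeR adjusted p = 2.79e-10), and -7.56 without animal M5. In striatum of younger WT males it was at 3.66 ± 1.73 TPM at 2 months and 2.45 ± 2.76 TPM at 6 months (SD, n = 3 each), against 0.949 ± 0.654 TPM at 19 months (n = 10). Those libraries were added from an earlier series, per the design text, so age and experiment cannot be told apart. They come from males and those of 19 months from both sexes, and a comparison within males was not made. The WT libraries of 6 months ran from 0.733 to 5.63 TPM. The mean in WT striatum of 10 months was 1.46 TPM. In KI striatum it was at 1.52 TPM at 2 months and 1.12 TPM at 6 months, against 2.24 TPM at 19 months (means). In cerebellum of 19 months it was at 2.02 ± 0.519 TPM (n = 10).

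**Figure D4:**
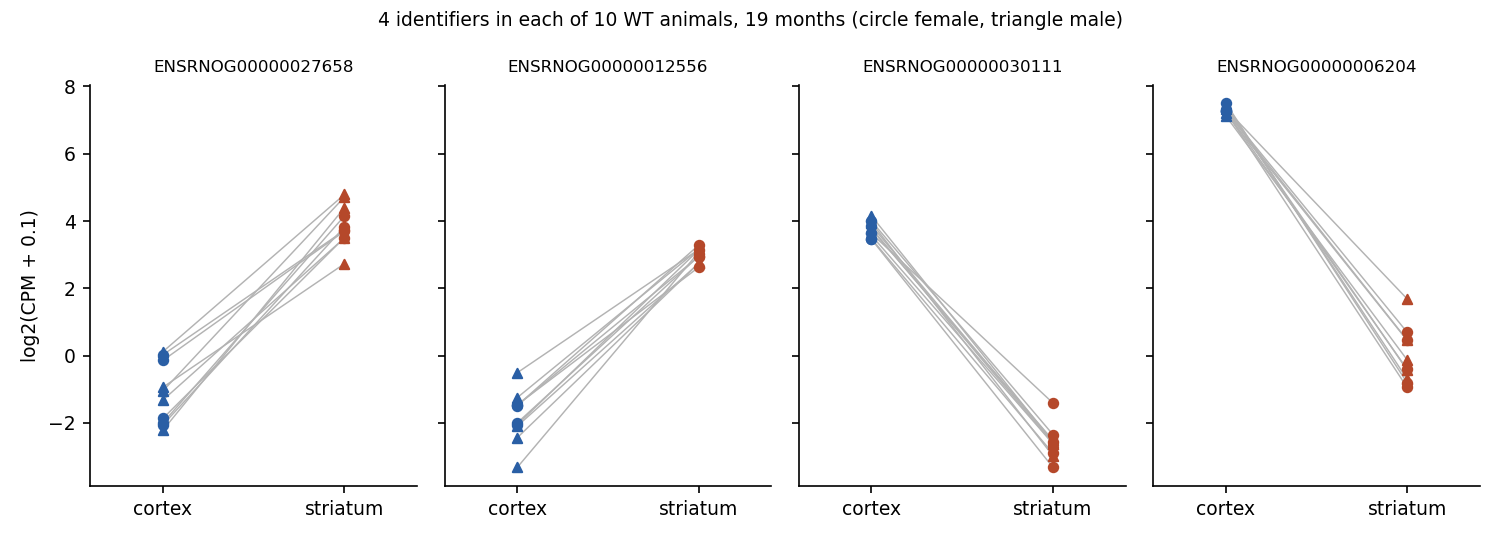
Level of the 4 identifiers as log2(CPM + 0.1) (y axis) in cortex and striatum (x axis) of the 10 WT animals of 19 months; lines join the regions of 1 animal, circles are females and triangles are males. Every line rises for ENSRNOG00000027658 and ENSRNOG00000012556, and every line falls for ENSRNOG00000030111 and ENSRNOG00000006204, with no overlap between regions.

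The regional difference was next set beside that of 3 cohorts that share no library with it. WT animals of 10 months had 5630 genes higher in striatum (36.8%) and 5447 lower (35.6%) of 15296. KI animals of 19 months had 5083 higher (33.1%) and 5193 lower (33.8%) of 15377. The 4 WT animals of 24 months had 3991 higher (25.8%) and 4130 lower (26.7%) of 15444, with fewer animals than the others. Leaving out 1 of those 4 animals gave 4827 to 8901 calls in place of 8121, the lowest without striatum M2.

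Of the 5429 genes called higher in WT of 19 months and tested at 10 months, 98.4% had the same sign there and 89.1% were called in the same direction, while 7 were called in the opposite one. For the 5586 genes called lower the shares were 97.9% and 87.4%, with 2 opposite. In KI of 19 months 99.5% and 99.4% had the same sign, 85.4% and 86.6% were called, and 0 were called opposite. At 24 months 96.2% and 95.6% had the same sign and 67.2% and 68% were called. For genes of the 2-fold rule the median log2 difference of those higher in striatum was 1.9 at 19 months and 1.97 at 10 months, and of those lower, -1.93 and -1.79. Across all genes tested in both, the log2 differences of WT of 19 months had a Pearson correlation of 0.963 with those of 10 months, 0.98 with KI of 19 months and 0.948 with 24 months (Spearman 0.946, 0.961 and 0.914). These are descriptions across genes, which are not independent replicates.

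The 4 identifiers showed the same directions in each cohort. ENSRNOG00000027658 had log2 differences of 5.27, 4.15 and 5.74 in WT of 10 months, KI of 19 months and WT of 24 months. ENSRNOG00000012556 had 5.63, 5.02 and 5.72. ENSRNOG00000030111 had -6.40, -6.73 and -6.56, each smaller in size than in WT of 19 months, where it was the most extreme of all genes and was named for that. ENSRNOG00000006204 had -6.81, -6.65 and -7.60.

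**Figure D5:**
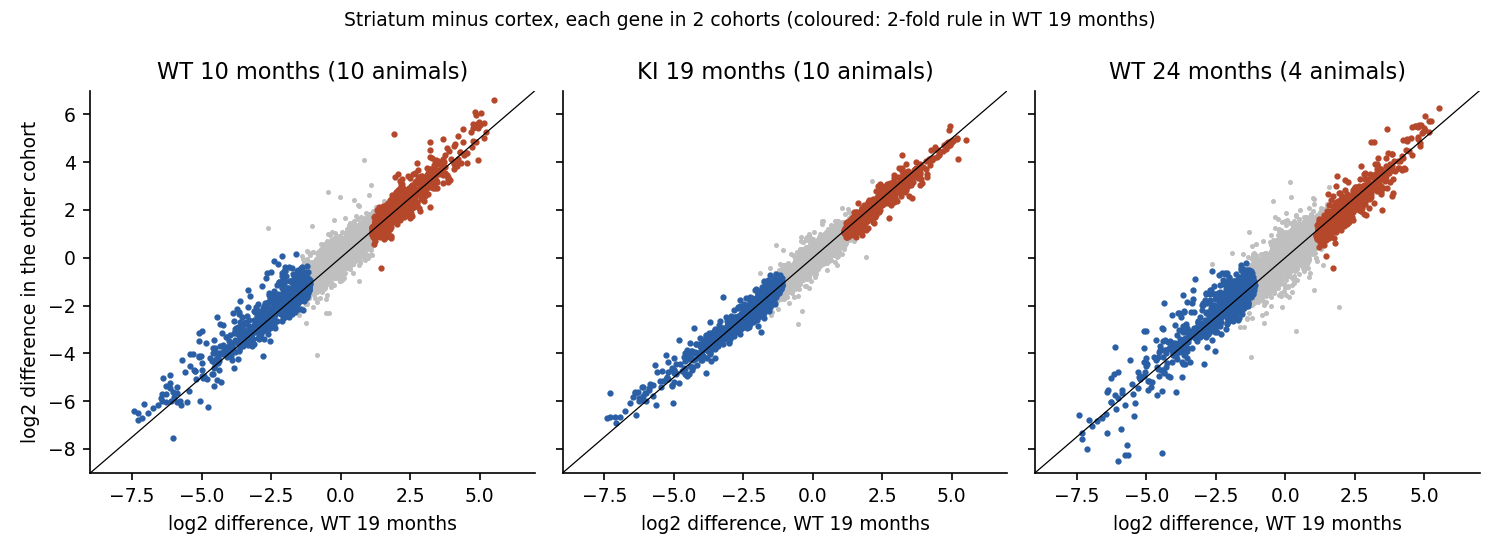
Log2 difference, striatum minus cortex, of each gene in WT of 19 months (x axis) against WT of 10 months, KI of 19 months and WT of 24 months (y axes). Coloured points are the genes of the 2-fold rule in WT of 19 months and the line marks equal values; most genes lie along it, with Pearson correlations of 0.963, 0.98 and 0.948.

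Whether the regional difference itself varied with sex or age was tested as an interaction within animals. With 5 females and 5 males, 0 of 15874 genes (0%) showed a regional difference that depended on sex at an adjusted p under 0.05. The smallest adjusted p was 0.69 (edgeR), 704 genes had an unadjusted p under 0.05, and DESeq2 called 1 gene. Between 10 and 19 months, 23 of 15823 genes (0.145%) were called, 10 with a higher and 13 with a lower striatum-minus-cortex difference at 19 months. The median size of the change in these 23 was 0.527 log2 units. The regional difference was smaller in size at 19 months for 16 and larger for 7, it had opposite signs at the 2 ages for 7, and 5 met the 2-fold rule at 19 months. The number of calls was unstable: 112 genes were called without animal M4 of 19 months, with the 23 among them, and 2 without animal F2 of 19 months. It was 0 in females alone, 3 in males alone and 202 with DESeq2. Leaving out single animals gave 0 to 112, and each of the 20 animals moved it by more than 1.5 times except F2, F3 and F4 of 10 months and F3 and M5 of 19 months. The animals of 10 and 19 months carry identifiers of different style, so age and cohort cannot be told apart.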

How the data were processed

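Messenger RNA was sequenced from flash-frozen tissue, per the labels' protocols. The authors deposited a table of estimated counts per gene, of which 8.12% are not whole; they were rounded here. The other deposited table has FPKM in its name, but every column adds up to 1000000, so its values were used as TPM. No source used here gives the aligner, the counter or the annotation release. Libraries were grouped by label and paired by the animal identifier in the sample descriptions. Replicate numbers differ between regions, so the pairs follow the animal, and deviations from the region means correlated within 9 of the 10 animals above 0.1 (0.027 to 0.425, median 0.282), against a mean of -0.028 between animals.

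Counts were fitted with edgeR 4.0.16 in R 4.3.3 (TMM, filterByExpr, robust quasi-likelihood F test) with the animal as a block. The 2-fold rule used glmTreat. Calls required a Benjamini-Hochberg adjusted p under 0.05. CPM used TMM factors and a prior count of 2 on the log scale. P-values set the mean within-animal difference between regions against the spread of that difference over animals. Counting precision is limited by depths of 27.1 to 47.3 times 1000000 counts. Effective length is the ratio of counts to TPM over the cortex libraries, in relative units. A library was taken as standing apart where its mean Spearman correlation was below its region's median by over 5 scaled median absolute deviations. The fits were tested on simulated counts with known changes.

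Alternatives were RLE size factors, library size only, DESeq2 1.42.0, no count filter, a filter of 1 CPM in 10 libraries, limma 3.58.1 on log2(TPM + 0.1), with a mean of at least 0.1 TPM or no filter, and on log2(TPM + 1), no animal block, each sex alone, and leaving out each animal. Added after seeing the data were the fit without animals M4 and F2, the 32-fold counts, and the interactions without each animal. The members, lists and tests were chosen with earlier results of these data known. The named identifiers follow a rule for tables without symbols: the first 2 in each direction by size among genes of the 2-fold rule that share their sign in all animals and reach a mean log2 CPM of 1. The design assumed whole counts, and the gene lists drawn up by symbol could not be matched.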

Additional observations from a re-analysis of the deposited data

Results flagged for a closer look

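Of 24 series of values checked for a sample far from the others, 9 had one; chance gives about 1 in 20. The libraries that stood apart were striatum M4, with a mean Spearman correlation of 0.965 with its region against 0.987 to 0.99, and cortex F4, with 0.986 against 0.991 to 0.993. Animal M4 had a median log2 difference of -2.34 for the cortex-high genes, against -1.88 to -1.78 in the other 9.

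Cortex M1 stood apart in 2 of the series. Its striatum-high share was 0.962% of TPM, against 0.705% to 0.821% in the other cortex libraries. Its level of ENSRNOG00000012556 was 0.603 CPM, against 0 to 0.321.

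Single libraries also stood apart for the lower region of the other identifiers. ENSRNOG00000030111 was at 0.277 CPM in striatum F3, against 0 to 0.0967 in the others. ENSRNOG00000006204 was at 3.12 CPM in striatum M5, against 0.419 to 1.52. In cerebellum M2, ENSRNOG00000012556 was at 0.168 TPM, against 0 to 0.0268, and the cortex-high share was 4.41%, against 4.74% to 5.07%.

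The regional difference itself differed between 10 and 19 months for 23 genes by the interaction test, a count that was 0 to 112 when single animals were left out.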

How the results depend on the processing

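The counts of genes called and of genes meeting the 2-fold rule stayed within 1.5 times of their values under the alternatives run, with 1 exception: on log2(TPM + 1), 404 genes met the 2-fold rule as higher and 493 as lower, in place of 848 and 914. Without the animal block (unpaired, sex as covariate) 5332 genes were called higher and 5387 lower, and 834 and 891 met the 2-fold rule; it changed no call of the 4 identifiers. Leaving out each animal gave 5253 to 6011 higher, 5305 to 5647 lower, and 828 to 882 and 877 to 907 by the 2-fold rule. The 4 identifiers kept their direction and their side of the threshold in every alternative. The regional difference by sex gave 0 genes without each animal in turn and 1 with DESeq2. That by age gave 202 with DESeq2, 0 in females, 3 in males and 0 to 112 without each animal; the cause was not tested. The 24-month count ran from 4827 to 8901 without each animal. At 32-fold, leaving out each animal gave 4 to 15 genes on the striatum side and 42 to 49 on the cortex side; with DESeq2 there were 13 on the striatum side, without a filter 17, in females 14, and on log2(TPM + 0.1) 3, with 22 on the cortex side. Depth limits genes of few counts in 1 region, whose fold depends on the prior count. Leaving out cortex F4 alone was done together with its animal's striatum library.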
